A study of Homo sapiens with 6 samples.

Results

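The genes described here are the protein-coding genes of human chromosome 16 that a deposited expression table lists, divided by chromosome arm. They were taken by Ensembl identifier as protein-coding on chromosome 16 in GENCODE 29, with a start before 36.8 Mb counted as short arm and any later start as long arm, and without symbols that begin with SLC, ZNF, CDH, MMP, ABCC or FOX. This gave 238 genes of the 6641 in the table, 87 on the short arm and 151 on the long arm. A further 22 protein-coding genes of the chromosome were left out by symbol. The grouping by arm was chosen by the measured FPKM ratio of the 2 cell lines along the chromosome, so the direction of the 2 arms is given as a description, without a test of the arms against each other.

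RNA sequencing was carried out on total RNA of 2 human cell lines, with 3 libraries labelled HCC827_Er and 3 labelled HCC827. HCC827 is an established lung adenocarcinoma line whose growth depends on a mutated epidermal growth factor receptor (EGFR). The series speaks of parental and resistant cells, and its design names resistance to EGFR tyrosine kinase inhibitors and histone crotonylation, an acyl mark on lysine, as the questions asked. The labels give both groups as lung, with no drug, dose, time, passage or clone for either, and no separate cultures are named for the 3 libraries of a group, so the spread behind each p-value may be technical alone.

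Chromosome 16 carries gene-dense stretches on both arms, separated by a block of heterochromatin next to the centromere. Its short arm ends near the alpha-globin genes and holds segmental duplications that give families of near-identical genes, while the long arm holds the metallothionein cluster, whose products bind zinc and copper. Housekeeping genes lie on both arms, many of them in closely spaced or head-to-head arrangements in which a pair of genes starts from one short stretch of DNA on opposite strands.

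Of the 238 genes, 211 had an FPKM (fragments per kilobase of transcript, scaled to the mapped fragments of a library) that reached 1 in 3 or more libraries out of 6 and were tested, 72 on the short arm and 139 on the long arm. The other 27 lay below that minimum, 15 on the short arm and 12 on the long arm. Differences are HCC827_Er minus HCC827 on the log2(FPKM + 1) scale, on which changes of low genes look smaller than they are, and a gene was called at a Benjamini-Hochberg adjusted p under 0.05 in limma and a difference of at least 1, a 2-fold change. The table holds almost only genes that differ between the lines: 97.1% of all 5276 genes tested had no overlap between the libraries of the lines, and 0.588% had a difference within 0.25 of 0. All shares below are therefore shares of listed genes, not of the genes on an arm. The table listed 19.6% of the short arm's 445 annotated protein-coding genes and 43.4% of the long arm's 348, against 26.3% of the 19951 in the genome.

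Stretches of promoter sequence are printed for some gene starts of the long arm and do not stand for all of them. The stretch before DOK4, not printed, was 44.9% G and C, against 71.8% before HERPUD1. RefSeq promoters (GRCh38.p14) were matched to 151 of the 211 tested genes, 44 on the short arm and 107 on the long arm. The first stretch is the whole of the interval between the starts of ANKRD11, a chromatin regulator, and SPG7, a mitochondrial protease, which lie head to head. It covers chr16:89490562-89490718 and is written for the minus strand, in the direction of ANKRD11. The second lies before HERPUD1, a membrane protein of the endoplasmic reticulum that takes part in the removal of misfolded proteins (chr16:56931892-56932047, plus strand). The third lies before MT1X, a metallothionein (chr16:56682220-56682423, plus strand). The stretches of HERPUD1 and MT1X end at the base before the gene, and letters inside an exon of GENCODE 29 were left out. Capitals mark 4 motifs searched on both strands. The GC box is spelled GGGCGG and the box named CCAAT by its own letters. Cores of the metal response element read TGCACNC in one form. In the other form they read TGCGCNC. The last motif is ER stress response element II, which begins with the reverse complement of CCAAT and overlaps that motif wherever it occurs.
ANKRD11: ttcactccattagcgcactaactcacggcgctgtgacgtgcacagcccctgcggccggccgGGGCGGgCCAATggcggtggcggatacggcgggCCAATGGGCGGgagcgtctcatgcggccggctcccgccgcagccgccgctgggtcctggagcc
HERPUD1: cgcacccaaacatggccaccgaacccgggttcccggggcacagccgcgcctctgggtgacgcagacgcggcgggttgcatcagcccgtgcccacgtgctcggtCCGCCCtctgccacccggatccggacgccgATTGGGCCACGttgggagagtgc
MT1X: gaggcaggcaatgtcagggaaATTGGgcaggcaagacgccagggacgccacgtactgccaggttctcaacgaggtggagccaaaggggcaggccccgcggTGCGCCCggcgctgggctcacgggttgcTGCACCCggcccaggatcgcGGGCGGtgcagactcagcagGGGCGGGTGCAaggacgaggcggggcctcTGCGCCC

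The ANKRD11 stretch holds 2 GC boxes and 2 CCAAT boxes in 157 bases. The HERPUD1 stretch holds 1 GC box and 1 ER stress response element II, whose letters include a CCAAT box. In the MT1X stretch, 4 metal response cores, 2 GC boxes and 1 CCAAT box were found, and 1 metal core overlaps a GC box. Over the 250 bases before the start, a GC box was present in 61.4% of short-arm and 72.9% of long-arm promoters, against 42.3% of all 27305 RefSeq promoters and 64.8% of the promoters of tested protein-coding genes in the table. CCAAT was present in 34.1% of short-arm and 33.6% of long-arm promoters, against 33.0% of all. The metal core was present in 47.7% of short-arm and 32.7% of long-arm promoters and in 24.7% of all, so a single match is common. ER stress response element II was present in no short-arm promoter, in 0.935% of those of the long arm and in 0.0513% of all. The long-arm share is the promoter of HERPUD1 alone, so the arms cannot be compared by it. A match describes these letters only.

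Most of the tested long-arm genes had lower levels in HCC827_Er. Of the 139 tested, 119 had a negative difference and 20 a positive one, and 35 were called lower and 14 higher. On the short arm 28 of 72 had a negative difference and 44 a positive one, and 10 were called lower and 24 higher. The background over all genes tested was 24.7% called higher and 19.7% called lower, and 51.4% had a positive difference. The median difference was 0.76 on the short arm (range -3.84 to 3.19) and -0.74 on the long arm (range -2.56 to 2.85), beside 0.43 over all genes tested. As plain FPKM ratios of HCC827_Er over HCC827, these medians were 1.77 on the short arm and 0.573 on the long arm. Few listed genes lie near 0, so a median difference mainly shows which sign is in the majority. Chromosome 22, with 47.4% positive differences, had a median of -0.48, and chromosome 6, with 53.7%, one of 0.52. On the short arm 61.1% were positive, against 51.4% over all genes tested, and the first quartile was -0.58. The median differences below, and the gap between those of the arms, have the same limit. On the log2(FPKM + 1) scale the difference was under 1 in size in 90 of the 139 long-arm genes, 84 of them with a negative sign. Low genes among them can differ by more than 2-fold in plain FPKM. Among the 27 genes below the minimum, 9 of 15 on the short arm and 4 of 12 on the long arm had a positive difference.

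**Figure D1:**
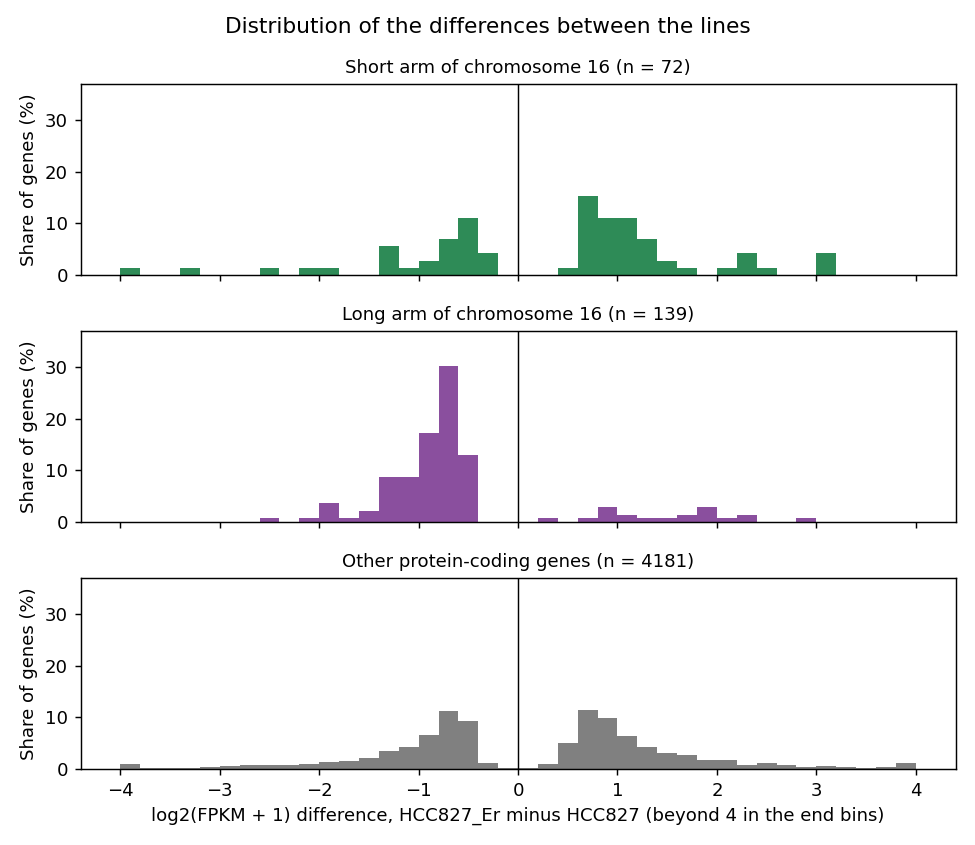
Distribution of the log2(FPKM + 1) difference, HCC827_Er minus HCC827, as the share of genes (%) in bins, for the 72 short-arm, 139 long-arm and 4181 other protein-coding genes tested. Both sides of 0 are filled in the top and bottom panels, the long-arm genes lie mainly on the negative side with 119 of 139, and few genes of any set lie near 0.

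The scale of the libraries moved many calls and 1 of these signs, that of AC126755.2 on the short arm. The median shift per gene, over all genes tested, was -0.30 after median-ratio rescaling and 0.21 after rescaling to equal library sums, both on the log2 scale. Both rescalings used the listed genes alone, nearly all of which differ between the lines. Their factors therefore depend on which genes were listed, and the sums are not those of whole libraries. A call kept or lost under them shows dependence on scale, not which scale is right. After the median-ratio rescaling, 15 short-arm genes were called higher and 13 lower, and 12 long-arm genes higher and 86 lower, beside 17.1% higher and 31.7% lower over all genes. After the sum rescaling the counts were 34 higher and 8 lower on the short arm and 18 higher and 15 lower on the long arm, beside 34.6% higher and 15.0% lower. The number of positive differences was 44 or 45 on the short arm and 20 on the long arm under all 3 scalings. The short-arm median stood above that of the long arm by 1.51 after the median-ratio and by 1.48 after the sum rescaling, and by a value between these as deposited.

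Every library of HCC827_Er gave the same picture, but the choice of genes largely fixed this. Of all genes tested, 97.1% had no overlap between the lines, and the arms were grouped by the measured ratio. The values by library are therefore a description and no support. The FPKM of the 139 long-arm genes summed to 6492, 6200.1 and 6172 in the HCC827_Er libraries, against 11015, 10648 and 10553 in the HCC827 libraries. The 72 short-arm genes summed to 1385, 1304 and 1271 in HCC827_Er and to 1312, 1276 and 1318 in HCC827. The long-arm sums of the lines lay far apart and the short-arm sums overlapped. Against the mean of the HCC827 libraries, the median short-arm gene deviated by 0.76, 0.75 and 0.68 in the HCC827_Er libraries and the median long-arm gene by -0.74, -0.76 and -0.77. Over the 9 pairings of a HCC827_Er with a HCC827 library, which share libraries, the short-arm median ranged from 0.65 to 0.85 and the long-arm median from -0.81 to -0.70. The HCC827_Er libraries lay above the HCC827 libraries without overlap in 43 short-arm genes and below them in 28, and in 1 they overlapped. On the long arm they lay above in 20 genes, below in 117 and overlapped in 2, where 50.0% of all genes tested lay above and 47.1% below.

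**Figure D2:**
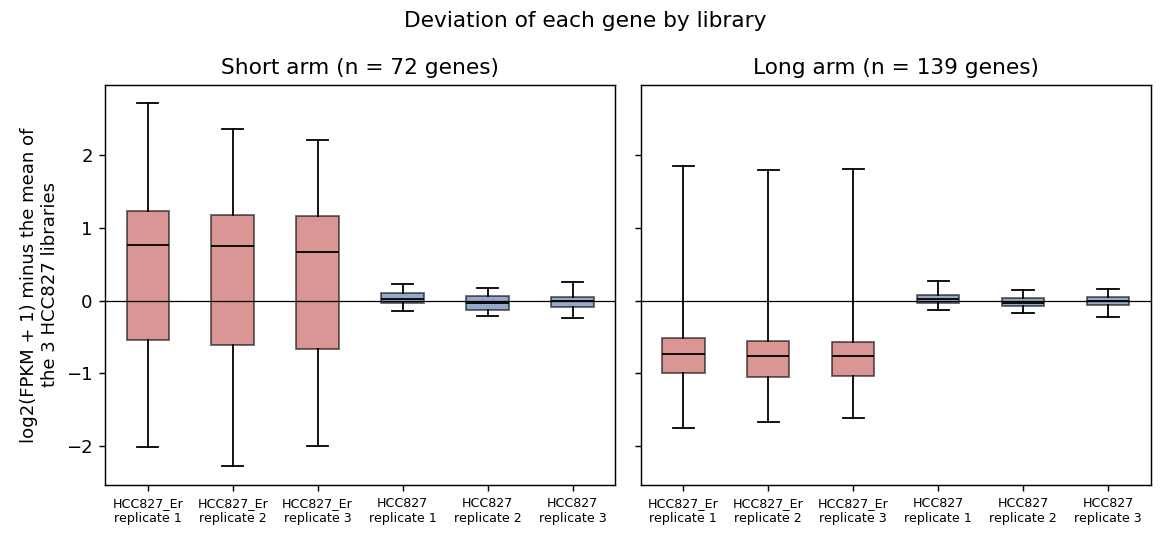
Deviation of log2(FPKM + 1) from the mean of the 3 HCC827 libraries, by library, for the tested short-arm (left) and long-arm (right) genes; boxes are quartiles with the median, and whiskers the 5th and 95th percentiles of genes. The medians of the 3 HCC827_Er libraries lie between 0.68 and 0.76 on the short arm and between -0.77 and -0.74 on the long arm.

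Checks on the whole table concern both arms alike. Per library the table adds up to 184633 to 224211 FPKM, which is no depth, and the number of reads is unknown. Of the epithelial markers, 4 of 6 were listed and summed to between 2552 and 2650 FPKM in HCC827_Er and between 2157 and 2244 in HCC827, a sum of opposite differences. EPCAM, CLDN4 and KRT19 were higher in every HCC827_Er library, with EPCAM between 266 and 315 FPKM in HCC827_Er and at most 30.6 in HCC827, while KRT8 was lower, with at most 1048 FPKM in HCC827_Er and at least 1693 in HCC827. The 3 lung lineage markers listed of 4 (NKX2-1, NAPSA and SFTPB) summed to between 351 and 370 FPKM in HCC827_Er and between 32.8 and 35.1 in HCC827. Markers of other cell types were low: 3 of 6 fibroblast markers summed to between 9.33 and 11.5 FPKM in HCC827_Er, where COL3A1 was listed at 0, and between 2.46 and 3.35 in HCC827. Leukocyte markers, 3 of 6 listed, summed to between 10.2 and 14.1 FPKM in HCC827_Er and between 0.96 and 1.70 in HCC827, and the 1 endothelial marker listed of 4 to at most 0.75 in HCC827_Er and to 0 in HCC827. Their part in the chromosome 16 differences was not tested. In bulk RNA, fewer cells with a transcript and less of it per cell cannot be told apart.

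Negative differences filled the long arm from end to end. In windows of 10 Mb counted from the start of the chromosome, the median difference of the 4 long-arm windows with at least 20 genes lay between -0.79 and -0.73. These windows held 28, 34, 26 and 45 tested genes, of which 9, 2, 6 and 3 had a positive difference. The short-arm windows held 31, 16, 16 and 9 genes with 18, 12, 9 and 5 positive, and medians of 0.80, 0.77, 0.70 and 1.05. None of the 22 other chromosomes had a lower share of positive differences than the 14.4% of the long arm; the lowest was chromosome 13 with 13 of 68 genes, or 19.1%. Of 66 windows of 10 Mb with at least 20 genes on other chromosomes, 1 had a lower share than the long arm, a window of chromosome 12 with 3 of 22. The short arm did not stand apart in this way: its 61.1% was exceeded by 6 chromosomes and 27 windows. The units differ: the other chromosomes were taken whole, with both arms together, and they and their windows kept the symbol families left out here. No arm of another chromosome was computed, so the long arm is not ranked among arms. These are rankings of chromosomes chosen with the result known, not tests.

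**Figure D3:**
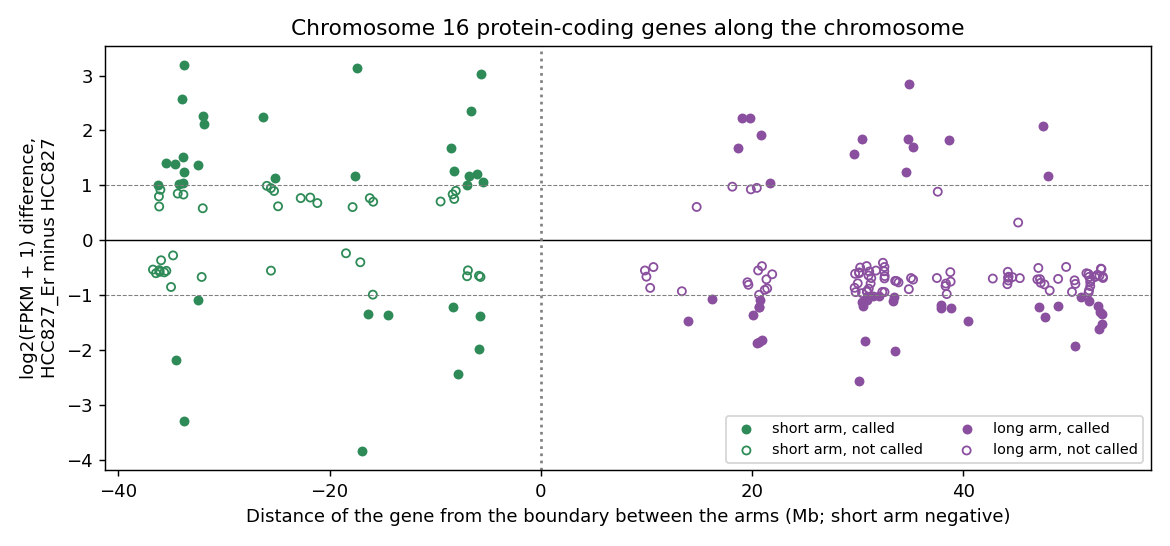
Difference in log2(FPKM + 1), HCC827_Er minus HCC827, of the 211 tested genes against distance from the boundary between the arms in Mb, short arm at negative distance. Filled points passed the test with at least a 2-fold change (dashed lines), open points did not; the 119 long-arm genes below 0 are spread over the arm, and points of the short arm lie on both sides of 0.

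Next to the boundary both signs occurred on the short-arm side and negative differences alone on the long-arm side, among the 3 genes listed on each. PRSS8, the serine protease prostasin that activates the epithelial sodium channel, had 37.7, 33.8 and 34.0 FPKM in HCC827_Er, against 3.66, 3.11 and 3.51 in HCC827. ITGAM, an integrin subunit of myeloid cells, was below the minimum, with at most 0.24 FPKM in HCC827_Er and at most 1.22 in HCC827. ITGAX, another myeloid integrin subunit, averaged 2.66 ± 0.473 FPKM in HCC827_Er and 0.757 ± 0.085 in HCC827 (SD, n = 3 each), a rise of 1.05 (SE 0.12) that was not called after median-ratio rescaling, nor without HCC827_Er replicate 1, where it was 0.96. Across the boundary, VPS35, a subunit of the retromer that sorts endosomal cargo, had 49.1, 62.6 and 52.8 FPKM in HCC827_Er and 89.4, 79.5 and 73.2 in HCC827. Its libraries did not overlap between the lines, but the difference of -0.55 (SE 0.10) was under 2-fold. C16orf87 differed by -0.67 and ITFG1 by -0.87, likewise not called as deposited, and ITFG1 was called lower after median-ratio rescaling (-1.20). At the chromosome's ends stood NPRL3, a subunit of the GATOR1 complex that restrains mTORC1, with -0.54 (SE 0.14), and GAS8, part of the regulatory complex of ciliary dynein, with -0.69 (SE 0.08), neither of them called as deposited and GAS8 called lower after median-ratio rescaling (-1.02). NPRL3 was also the only tested member of the 14 names of the alpha-globin neighbourhood.

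Genes of one sign stood in long rows on the long arm. The 2 members of a neighbouring pair had the same sign in 40 of 71 pairs on the short arm (56.3%), in 108 of 138 on the long arm (78.3%), and in 2641 of 4141 on other chromosomes (63.8%). Such counts depend in part on the share of each sign, which was 85.6% negative on the long arm. No expected count was worked out. The longest run of 1 sign held 30 genes, from ZDHHC7 to GAS8 (GRCh38 chromosome 16, 84974181 to 90044975), with differences between -1.93 and -0.49 and 9 of them called. A second run of 28 genes reached from PLEKHG4 to MTSS1L (67277510 to 70686066), with differences between -2.02 and -0.41 and again 9 called. On the short arm the longest run held 8 genes with positive differences, from CCNF to BICDL2 (2429394 to 3036926), between 0.83 and 3.19, of which 6 were called.

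Head-to-head gene pairs, with opposite strands and starts within 1000 bases, shared their sign on the long arm. All 9 such pairs had 2 negative differences, the short arm had no such pair, and on other chromosomes 65 of 76 pairs had the same sign, 34 of them with 2 negative differences. Most pairs on an arm with 85.6% negative differences would show this, and 4 of the 9 pairs overlap each other by GENCODE 29: COQ9 with CIAPIN1, COX4I1 with EMC8, TRAPPC2L with GALNS, and GAS8 with DBNDD1. COQ9, needed for the synthesis of coenzyme Q, had 59.9, 54.3 and 56.2 FPKM in HCC827_Er, against 138, 128 and 133 in HCC827. Its partner CIAPIN1, of the cytosolic iron-sulfur cluster machinery, had 41.6, 40.5 and 39.5 FPKM in HCC827_Er, against 93.1, 97.5 and 96.8 in HCC827. Both were about evenly lower in all HCC827_Er libraries, with differences of -1.21 (SE 0.06) and -1.22 (SE 0.05), and both were called as deposited and after median-ratio rescaling but not after sum rescaling. No source used here says that reads were counted by strand, so the reads of overlapping partners cannot be told apart fully. ANKRD11 and SPG7, whose shared interval is printed above, do not overlap. ANKRD11 had 84.65, 71.97 and 74.98 FPKM in HCC827_Er and 124, 119 and 127 in HCC827, and SPG7 had 74.2, 73.8 and 77.3 FPKM in HCC827_Er and 117, 110 and 123 in HCC827. The lines did not overlap in either gene, and the differences of -0.67 and -0.63 were under 2-fold, though ANKRD11 was called lower after median-ratio rescaling.

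Long-arm genes with a positive difference lay mostly at low levels. Among long-arm genes with a mean over the 6 libraries under 5 FPKM, 12 of 23 had a positive difference, from 5 to 20 FPKM 5 of 40, from 20 to 100 FPKM 2 of 57, and from 100 FPKM 1 of 19, which was MT1X. The median of these means was 2.84 FPKM for long-arm genes with a positive difference and 33.3 for those with a negative one. The same order was present on the short arm with 14 of 18, 21 of 32, 9 of 20 and 0 of 2 positive, and more weakly in other protein-coding genes with 59.1%, 54.9%, 45.3% and 41.4%. A gene could reach the minimum through the libraries of a single line, as CES1 did through HCC827_Er and DPEP1 through HCC827. The signs under 5 FPKM are therefore partly set by that minimum, and nothing is concluded from them. Of the 119 long-arm genes with a negative difference, 75 had a ratio of HCC827_Er over HCC827 between 0.5 and 0.75 (63.0%), where 49.8% of the other protein-coding genes with a negative difference did. The replicates of the long arm were somewhat tighter than those of all genes, with a median coefficient of variation of 8.72% in HCC827_Er and 6.75% in HCC827, against 10.6% and 9.76% over all genes tested. The long-arm genes also had higher levels, with a median mean of 28.1 FPKM against 8.25 over all genes tested. The spread was not compared at matched levels. The median GC content of the transcripts was 59.1% on the short arm and 52.1% on the long arm, beside 49.0% over all tested protein-coding genes.

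**Figure D4:**
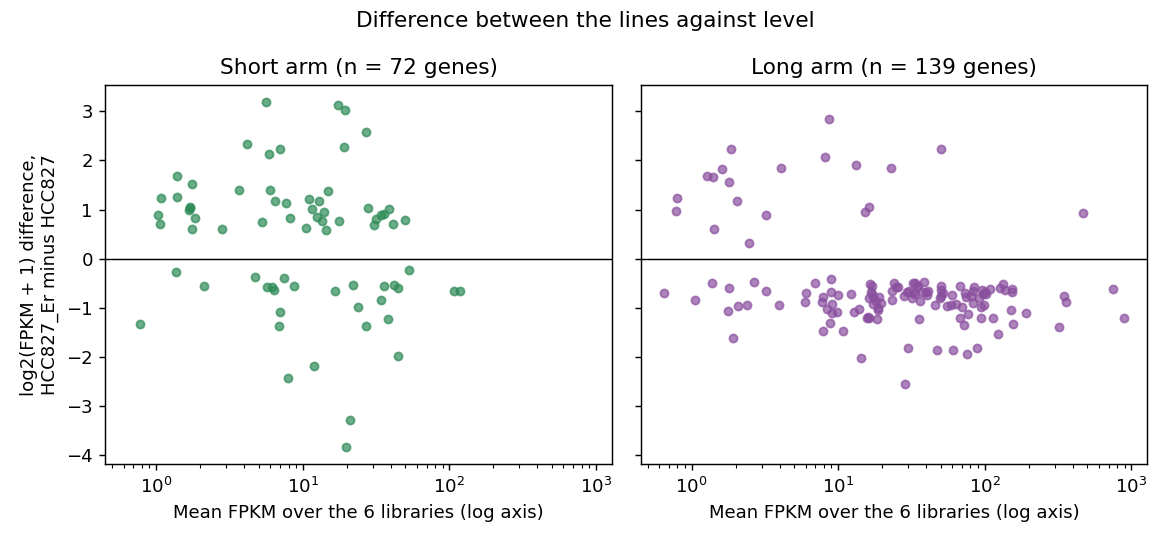
Difference in log2(FPKM + 1), HCC827_Er minus HCC827, against the mean FPKM over the 6 libraries (log axis), for the tested short-arm (left) and long-arm (right) genes. Most of the 20 positive points of the long arm lie at low levels, with a median of 2.84 FPKM, and the negative ones reach the highest levels.

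Most tested genes of the list named epithelial surface and barrier were higher in HCC827_Er. A positive difference was present in 7 of 7 on the short arm and 2 of 3 on the long arm. The list held the largest increase of each arm. That of the short arm was BICDL2, described below as a relative of motor adaptors and not as a surface or barrier protein. Of 20 names, 10 were tested, and their median difference was 2.18. As deposited and after median-ratio rescaling 8 were called higher and 1 lower, and after sum rescaling 8 higher and none lower. Over all genes tested, 24.7% were called higher and 19.7% lower as deposited. After median-ratio rescaling these shares were 17.1% and 31.7%, and after sum rescaling 34.6% and 15.0%. The list was chosen with earlier results of these data known. BICDL2, a relative of the BICD adaptors of the dynein motor, had 12.5, 10.5 and 9.75 FPKM in HCC827_Er and 0.52, 0.18 and 0.23 in HCC827, a rise of 3.19 (SE 0.14, limma adjusted p = 1.08e-07). TMC5, a transmembrane channel-like protein, had 30.2, 31.7 and 33.7 FPKM in HCC827_Er and 3.46, 2.31 and 2.57 in HCC827, a rise of 3.13 (SE 0.12). On the long arm MARVELD3, a tight junction protein, had 14.8, 15.8 and 16.9 FPKM in HCC827_Er and 1.96, 1.48 and 0.73 in HCC827. It rose by 2.85 (SE 0.19, limma adjusted p = 1.09e-06), the largest increase of the long arm, while PHLPP2, a phosphatase of AKT that overlaps it, differed by -0.89 and was called lower only after median-ratio rescaling (-1.19). The libraries of the lines were far apart in all 3 genes, and BICDL2 and MARVELD3 share positions with other listed genes whose reads cannot be told apart from theirs without strand. SMIM22, a small membrane protein, averaged 32.6 ± 13.2 FPKM in HCC827_Er and 5.78 ± 1.57 in HCC827 (SD, n = 3 each), with one HCC827_Er library at 47.8 and the others at 24.0 and 26.0. PPL, the desmosomal plakin periplakin, rose by 2.13, EMP2, a tetraspan epithelial membrane protein, by 2.24, CLDN9, a claudin of tight junctions, by 1.24, and ATP2C2, a calcium and manganese pump of the secretory pathway on the long arm, by 2.08. The exception was FA2H, which hydroxylates fatty acids of sphingolipids. It averaged 10.6 ± 0.959 FPKM in HCC827_Er and 26.2 ± 1.35 in HCC827, a fall of 1.23 that was not called after sum rescaling.

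The serine proteases and the enzymes beside them gave further called genes. Of 14 names of serine proteases, 2 were tested and both were called higher under all 3 scalings. Beside this and the other list counts of this paragraph, 24.7% of all genes tested were called higher and 19.7% lower as deposited. These shares were 17.1% and 31.7% after median-ratio rescaling, and 34.6% and 15.0% after sum rescaling. PRSS8 rose by 3.03 (SE 0.09, limma adjusted p = 1.16e-08), about evenly in its 3 libraries given above. PRSS22, a tryptase of airway epithelium, had 51.9, 45.7 and 43.0 FPKM in HCC827_Er and 7.80, 8.88 and 4.95 in HCC827, a rise of 2.57 (SE 0.17). Among the sulfotransferases and ACSM acyl-CoA synthetases, 4 of 9 names were tested, of which 1 was called higher and 1 lower, or 2 higher and 1 lower after sum rescaling. SULT1A2, which belongs to a family of near-identical copies and is uncertain for that reason, averaged 2.37 ± 0.155 FPKM in HCC827_Er and 0.413 ± 0.116 in HCC827. ACSM5 was listed at 0 in the 3 HCC827_Er libraries and had 1.54, 1.90 and 1.19 FPKM in HCC827. Of 17 names of redox, lipid and steroid enzymes, 6 were tested and 1 was called higher and 2 lower, against 1 and 4 after median-ratio and 1 and 1 after sum rescaling. HSD3B7, a short-arm enzyme of bile acid synthesis, had 17.1, 18.0 and 17.2 FPKM in HCC827_Er and 72.5, 70.3 and 73.2 in HCC827, and fell by 1.99 (SE 0.06). LPCAT2, an acyltransferase that makes phosphatidylcholine and platelet-activating factor, averaged 2.66 ± 0.425 FPKM in HCC827_Er and 0.143 ± 0.0611 in HCC827 and rose by 1.67. PLA2G15, a lysosomal phospholipase, fell by 1.01 and was not called after sum rescaling, nor without HCC827_Er replicate 3 (-0.96) or HCC827 replicate 1 (-0.95). VKORC1, the vitamin K epoxide reductase, averaged 82.6 ± 4.83 FPKM in HCC827_Er and 132 ± 4.56 in HCC827, and CYBA, a subunit of NADPH oxidases, 596 ± 74.9 in HCC827_Er and 913 ± 107 in HCC827. Neither was called as deposited, with differences of -0.67 and -0.61, and VKORC1 was called lower after median-ratio rescaling (-1.01).

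The largest decreases of the short arm lay among signalling and immune genes. GPRC5B, an orphan G-protein coupled receptor of the retinoic acid-inducible family, had 1.40, 1.70 and 2.09 FPKM in HCC827_Er, against 38.0, 37.6 and 38.1 in HCC827. It fell by 3.84 (SE 0.11, limma adjusted p = 9.19e-09), the largest change among the 211 genes on this scale. It overlaps another listed gene. IL32, which encodes an inflammatory cytokine, had 4.04, 2.36 and 3.03 FPKM in HCC827_Er, against 41.2, 39.4 and 36.9 in HCC827, and fell by 3.30 (SE 0.14). LAT, an adaptor of T cell receptor signalling, had 2.53, 1.18 and 1.65 FPKM in HCC827_Er, against 15.8, 10.3 and 15.9 in HCC827, and fell by 2.43 (SE 0.22). In all 3 the highest HCC827_Er library lay far below the lowest HCC827 library. Of 19 names of immune receptors and leukocyte integrins, 6 were tested and 2 were called higher and 2 lower, against 1 and 2 after median-ratio and 3 and 2 after sum rescaling. CORO1A, an actin-binding protein of leukocytes, was among those called higher, with 8.60, 7.70 and 6.67 FPKM in HCC827_Er and 0.77, 0.85 and 0.49 in HCC827. ABCA3, which carries surfactant lipids in alveolar cells, averaged 3.66 ± 0.407 FPKM in HCC827_Er and 20.1 ± 1.70 in HCC827, a fall of 2.18 (SE 0.11). Of the growth signalling names, 6 of 25 were tested and 2 were called lower, or 4 after median-ratio and 2 after sum rescaling, and all 6 had a negative difference. Beside the immune and growth signalling counts, 24.7% of all genes tested were called higher and 19.7% lower as deposited. These shares were 17.1% and 31.7% after median-ratio rescaling, and 34.6% and 15.0% after sum rescaling.

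**Figure D5:**
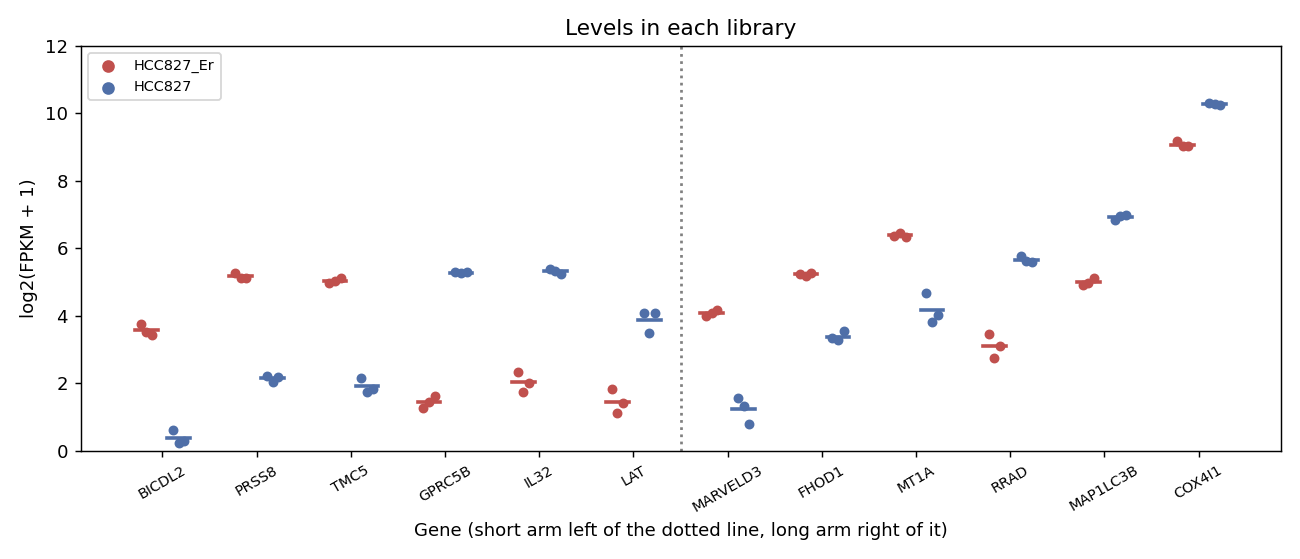
Levels of 12 genes in each library as log2(FPKM + 1), HCC827_Er (red, left of each pair) and HCC827 (blue), with a bar at the mean of 3 libraries; short-arm genes are left of the dotted line. No gene shown overlaps between the lines, and both directions occur on both arms.

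Of 32 names of mitochondrial proteins, 10 were tested, and 3, all on the long arm, were called lower as deposited, 7 after median-ratio and none after sum rescaling, beside 19.7%, 31.7% and 15.0% of all genes tested. All 10 had a negative difference, but 8 of them lie on the long arm, where 119 of 139 genes did. COX4I1, a subunit of cytochrome c oxidase and the long-arm gene with the highest mean level, had 575, 526 and 518 FPKM in HCC827_Er, against 1270.03, 1251 and 1212 in HCC827. The difference was -1.21 (SE 0.05, limma adjusted p = 7.76e-08), and the lines lay far apart in level. PDPR, a regulatory subunit of pyruvate dehydrogenase phosphatase, was called with COQ9 and COX4I1, at 5.36 ± 0.185 FPKM in HCC827_Er and 12.7 ± 1.55 in HCC827 (SD, n = 3 each); it has near-identical copies and is uncertain. GOT2, the mitochondrial aspartate aminotransferase, averaged 85.4 FPKM in HCC827_Er and 132 in HCC827, a difference of -0.62 that was not called.

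The lists of protein turnover, vesicle traffic and translation lie almost wholly on the long arm, and their calls as deposited are near the 19.7% called lower over all genes tested, so nothing about these functions is read from their counts. Lower calls rose to 31.7% of all genes tested after median-ratio rescaling, when 86 of 139 long-arm genes were called lower. They were 15.0% of all genes tested after sum rescaling, with 15 long-arm genes. In the ubiquitin list 7 of 23 names were tested and 2 were called lower, against 7 after median-ratio and 2 after sum rescaling. CYLD, a deubiquitinase that restrains NF-kB signalling, had 5.17, 5.83 and 4.62 FPKM in HCC827_Er, against 14.8, 17.7 and 16.2 in HCC827, and fell by 1.47 (SE 0.11). HERPUD1 had 44.4, 40.4 and 35.0 FPKM in HCC827_Er, against 102, 98.3 and 110 in HCC827, and fell by 1.36 (SE 0.09); its promoter stretch is printed above. In both genes the lines were well separated. HERPUD1, COX4I1, MAP1LC3B, HSD3B7 and PKMYT1 also overlap other listed genes. In the autophagy, lysosome and vesicle list 7 of 23 names were tested and 1 was called lower, against 3 after median-ratio and 1 after sum rescaling. That gene was MAP1LC3B, which encodes LC3B of the autophagosome membrane, with 28.9, 30.3 and 33.5 FPKM in HCC827_Er and 115, 123 and 125 in HCC827. It fell by 1.93 (SE 0.07, limma adjusted p = 2.85e-08), while GABARAPL2, of the same protein family, averaged 68.0 FPKM in HCC827_Er and 102 in HCC827 and was not called. In the RNA processing and translation list 7 of 39 names were tested and 1 was called lower, against 7 after median-ratio and none after sum rescaling. It was AARS, the alanyl-tRNA synthetase, with 97.9 ± 0.657 FPKM in HCC827_Er and 203 ± 5.78 in HCC827 and a difference of -1.04 (SE 0.05).

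Cell cycle and DNA repair genes were tested for 10 of 29 names, 5 on each arm, and carried the prevailing sign of their arm, which the grouping was based on. As deposited 2 were called higher and 1 lower, beside 24.7% called higher and 19.7% lower over all genes tested. Median-ratio rescaling left none called higher and 1 lower, beside 17.1% and 31.7% over all genes tested. With sum rescaling 4 were called higher and none lower, beside 34.6% and 15.0%. PKMYT1, the inhibitory kinase of CDK1, averaged 37.7 ± 5.13 FPKM in HCC827_Er and 17.8 ± 1.82 in HCC827 (SD, n = 3 each), with a difference of 1.04. KIF22, a chromosome-binding kinesin, had 53.2, 50.1 and 53.3 FPKM in HCC827_Er and 24.7, 25.3 and 26.2 in HCC827, with a difference of 1.01 (SE 0.06). Both lay just past the 2-fold limit. PKMYT1 lost the call without HCC827_Er replicate 1 (0.93) or HCC827 replicate 1 (0.98), and KIF22 without HCC827_Er replicate 1 (0.997) or 3 (0.995) or HCC827 replicate 1 (0.992). TERF2IP, the RAP1 protein of the telomere complex shelterin, was the long-arm gene called lower, at 20.9 ± 0.486 FPKM in HCC827_Er and 50.3 ± 1.49 in HCC827.

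In the 16p11.2 interval, a stretch of the short arm known for recurrent deletions and duplications, 5 of 27 names were tested and 3 were called higher, against 1 after median-ratio and 3 after sum rescaling. They were KIF22, CORO1A and DOC2A, a calcium sensor of vesicle release, which averaged 18.4 ± 2.11 FPKM in HCC827_Er and 7.56 ± 0.491 in HCC827. MVP, the major vault protein, lies in the same interval and had lower levels in HCC827_Er, at 91.5 ± 2.62 FPKM against 145 ± 6.63 in HCC827, with a difference of -0.66 that was not called. Of 38 names of chromatin and transcription factors 10 were tested and 2 were called lower, against 4 lower after median-ratio rescaling, and 1 higher and none lower after sum rescaling. Beside the counts of both lists, 24.7% of all genes tested were called higher and 19.7% lower as deposited. These shares were 17.1% and 31.7% after median-ratio rescaling, and 34.6% and 15.0% after sum rescaling. GLIS2, a zinc finger factor, fell by 1.09 and BANP, which binds unmethylated CpG motifs, by 1.03, and BANP lost the call without HCC827_Er replicate 1 (-0.95) or 2 (-0.99) or HCC827 replicate 3 (-0.97). PDXDC1, a short-arm gene of high level with near-identical copies, averaged 63.3 ± 2.50 FPKM in HCC827_Er and 36.5 ± 2.45 in HCC827 and was called only after sum rescaling. AC126755.2 averaged 48.3 ± 1.57 FPKM in HCC827_Er and 57.5 ± 7.09 in HCC827, and its difference of -0.24 changed sign after sum rescaling. It carries the symbol NPIPA9, of a family with near-identical copies, and is uncertain for that reason.

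Other long-arm genes called lower were spread over several functions. RRAD, a Ras-related GTPase that restrains calcium channels, had 9.90, 5.68 and 7.60 FPKM in HCC827_Er, against 53.5, 48.4 and 47.2 in HCC827, and fell by 2.56 (SE 0.16), the largest decrease of the long arm. ST3GAL2, a sialyltransferase, had 7.10, 6.13 and 2.67 FPKM in HCC827_Er, against 25.6, 22.0 and 22.0 in HCC827; its lowest HCC827_Er library stood apart within the group. ARL2BP, a partner of the small GTPase ARL2, fell by 1.87 and DOK4, a docking adaptor of receptor tyrosine kinases, by 1.86, and both overlap another listed gene. NUTF2, which imports Ran into the nucleus, averaged 253 ± 35.5 FPKM in HCC827_Er and 467 ± 50.4 in HCC827 with a difference of -0.88, and was called lower only after median-ratio rescaling (-1.23). Of 9 names of the CMTM family and chemokines 3 were tested, with no call on the deposited values or after sum rescaling, against 1 lower after median-ratio rescaling. All 3 had an adjusted p under 0.05 in limma, as did 207 of the 211 tested genes of the 2 arms. Of all genes tested, 19.7% were called lower as deposited and 31.7% after median-ratio rescaling. CKLF, a chemokine-like factor, averaged 122 ± 9.61 FPKM in HCC827_Er and 187 ± 0.916 in HCC827, and CX3CL1, the chemokine fractalkine, 40.5 ± 1.00 in HCC827_Er and 59.9 ± 1.75 in HCC827.

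The long-arm genes that went the other way included the metallothioneins. Of 11 names 2 were tested. MT1A was called higher under all 3 scalings and MT1X after sum rescaling only. Of all genes tested, 24.7% were called higher as deposited and 34.6% after sum rescaling. MT1A had 81.1, 86.3 and 80.6 FPKM in HCC827_Er and 24.3, 12.9 and 15.1 in HCC827, a rise of 2.23 (SE 0.19). MT1X, whose promoter stretch is printed above, had 552, 670 and 605 FPKM in HCC827_Er, against 282, 305 and 378 in HCC827, a difference of 0.93 (SE 0.11) under 2-fold, or 1.05 and called without HCC827 replicate 3. Neither gene overlaps between the lines, and both are uncertain because metallothionein genes are near-identical. FHOD1, a formin that builds actin filaments, had 37.1, 35.2 and 37.5 FPKM in HCC827_Er, against 9.04, 8.68 and 10.7 in HCC827, and rose by 1.85 (SE 0.09); it lies between runs of genes with negative differences. ADGRG1, the adhesion receptor GPR56 and the only tested one of 3 names of its family, rose by 1.91 (SE 0.12), at 21.6 ± 1.59 FPKM in HCC827_Er and 5.05 ± 0.917 in HCC827. CES1, a carboxylesterase that hydrolyses drugs and lipids, had 3.34, 3.76 and 4.04 FPKM in HCC827_Er and was listed at 0 in the 3 HCC827 libraries. CES2, the other of 2 carboxylesterases tested of 5 names, averaged 20.4 FPKM in HCC827_Er and 31.2 in HCC827 and was not called.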

How the data were processed

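The deposited values are FPKM per gene and library, made by the authors; fastp, HISAT2 and StringTie are named per the submitters' processing notes, with the builds GRCh38.p14 and hg19. Their roles and versions, strand handling and why a gene was listed are not stated there. FPKM is relative to each library's mapped fragments, so abundant transcripts lower all other values, and neither depth nor counting error can be had from it. Gene types and positions came from GENCODE 29 (GRCh38, 6353 of 6641 genes matched), since the table has no coordinates, and promoters from RefSeq.

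Values were taken as log2(FPKM + 1). Genes with at least 1 FPKM in 3 or more libraries were fitted with limma 3.58.1 (trend) in R 4.3.3, with line as the one term and p-values adjusted over all 5276 genes tested. With 3 libraries a line, 0.10 is the smallest two-sided p an exact test allows, so none was run. The steps were tested on simulated data. Of the tested genes described, 57 overlap another listed gene and 11 belong to families with near-identical copies, not counting AC126755.2 (NPIPA9).

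The genes, lists and tests were chosen with earlier results of these data known. Named genes were, per arm, the 5 called genes with the largest change in each direction (without overlap, at least 5 FPKM in the higher line), the 4 with the highest mean, those at the boundary and the ends, the longest run, and up to 4 called genes per list or 2 tested ones. Outside this rule EMP2, PPL, CLDN9, FA2H, CIAPIN1, ANKRD11, SPG7, PHLPP2, GOT2, GABARAPL2, CES2, EMC8, TRAPPC2L, GALNS, DBNDD1 and the second run of the long arm were named after their values were seen. Alternatives were other pseudocounts and minima, 2 rescalings, limma without the trend, the left-out families kept in, all gene types, genes near the boundary left out, a block for the replicate number, and leaving out each library.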

Additional observations from a re-analysis of the deposited data

How the results depend on the processing

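The signs of the medians held under every alternative run: the short-arm median stayed positive, the long-arm median negative. A pseudocount of 0.1 gave medians of 0.82 and -0.80 (short arm, long arm), 1.62 apart. A pseudocount of 5 left 579 genes of the table called higher and 506 lower, 9 short-arm genes higher, 5 long-arm genes higher and 21 lower, and medians of 0.40 and -0.63, 1.03 apart. With no minimum FPKM the medians were 0.62 and -0.72, 1.34 apart. A minimum of 5 FPKM gave 867 genes of the table and 7 long-arm genes called higher, with medians of 0.69 and -0.77. Median-ratio rescaling gave 1671 genes of the table called lower, 15 short-arm genes higher, 86 long-arm genes lower, and medians of 0.44 and -1.07. Sum rescaling gave 15 long-arm genes called lower and medians of 0.97 and -0.51, and turned AC126755.2 to 0.0054. Fitting all gene types of the chromosome gave a short-arm median of 0.71, 1.44 above the long arm. Alternatives chosen after seeing the data left out overlapping genes and near-identical copies, with 23 long-arm genes called lower, or kept genes with a mean of at least 10 FPKM, with 10 short-arm genes called higher and 6 lower, 4 long-arm genes higher, and medians of 0.69 and -0.77.

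Leaving out each library in turn gave 21 to 25 short-arm genes called higher and 10 to 11 lower, 14 to 15 long-arm genes higher and 35 to 38 lower, and medians of 0.71 to 0.77 and -0.76 to -0.73, 1.47 to 1.53 apart; among all genes tested, 1298 to 1334 were called higher and 1034 to 1056 lower. PKMYT1, KIF22, ITGAX, PLA2G15 and BANP lost their call without some library and MT1X gained one, with the values given above. With the replicate number as a block the counts were 1304 and 1041 over the table, 24 and 10 on the short arm and 14 and 35 on the long arm, as without it. Same-numbered libraries correlated in their deviations by 0.106, -0.022 and 0.049, so they share only a number. Of 53 named genes tested, 39 were called as deposited; 23 of these stayed called in each of the 14 alternatives in which they could be fitted and 16 lost the call in at least 1. Of the 14 not called, 7 stayed so, 6 gained a call and AC126755.2 changed sign. FPKM without depth leaves the counting error of low genes unknown. Nearly all listed genes separate the lines, so steady medians without a library were largely fixed by that.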
